A study of Oreochromis niloticus with 12 samples.

Results

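The genes described are the nuclear receptors of Nile tilapia (Oreochromis niloticus) other than the NR5A group, in testis and ovary of fish labelled control or SF1-suppressed. Genes entered by symbol, when it began with a numbered NR family root or with the name of a further receptor. Those were the sex steroid, estrogen-related, retinoic acid, retinoid X, peroxisome proliferator-activated, thyroid hormone, vitamin D, ROR and HNF4 receptors. The receptor group itself was chosen with earlier results of these data known. Names starting with nr5a or nr1h3 were left out. Of the 22283 genes listed, 69 matched, of which 66 are receptors and 3 are not: the coactivator ppargc1a and the thyroid-receptor-associated proteins thrap3a and thrap3b. For 13 of the 69 the annotation shares the symbol with other genes, so their identity is less certain; they are called copies here and are given with their Ensembl number. No gene entered under the symbol esr1 or pgr, so these receptors were not analysed here.

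Nuclear receptors are transcription factors that sit on short DNA elements, most of them alone, as pairs of one kind, or as pairs with a retinoid X receptor. Many change their activity when a small fat-soluble ligand enters the ligand pocket. Such ligands are sex steroids, cortisol, thyroid hormone, retinoic acid, vitamin D, bile acids and fatty acids. Orphan receptors such as the COUP-TF and NR4A groups work without a known hormone. In the gonad the estrogen receptors read a steroid made there, retinoic acid receptors act in the entry of germ cells into meiosis, and DAX1 (nr0b1) is known from mammals as a repressor of SF1.

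Controls and fish labelled SF1-suppressed were each sampled for testis and for ovary, and each of these 4 groups had 3 libraries, numbered 1 to 3, and values below follow that order. Eggs had been exposed to antisense fragments against SF1 (nr5a1), a receptor that drives steroid synthesis genes, in a transfection mix before fertilisation; controls got the mix with ultrapure water or with a blank plasmid. The fish were raised for 150 days, the first 30 in a small circulating system, and the labels call the gonads sexually mature. The labels do not say which construct or control mix a library came from, or whether a library is 1 fish or a pool, so the p-values measure the spread between these libraries, which may be technical.

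Libraries held between 36.8 and 60.5 M counts, and the first principal component (83.7% of the variance) separated the tissues. The summed FPKM of 7 spermatid and sperm genes was between 421 and 664 in testis and between 16.3 and 23.1 in ovary. That of 5 oocyte genes was between 1427 and 1868 in ovary and between 54.9 and 69.2 in testis. Of these 5, figla went the other way, with 42.9, 38.5 and 42.5 FPKM in control testis and 20.9, 21.1 and 21.3 in control ovary. The target gene nr5a1 had 9.26, 11.8 and 17.9 FPKM in control testis and 23.7, 24.3 and 6.34 in the testis libraries labelled SF1-suppressed (log2 change 0.58, SE 0.44, edgeR adjusted p = 0.415). In ovary it had 1.37, 1.95 and 2.80 FPKM in controls and 1.35, 2.95 and 1.73 in suppressed libraries (0.04, SE 0.34, adjusted p = 0.935). The fitted nr5a1 change was upward in both tissues and did not pass in either. A lower SF1 RNA level under the suppressed label was thus not shown, so every direction below is between labels.

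The third suppressed testis library differed from the other two. It held the lowest FPKM of its group for 38 of 46 receptors that reached 1 FPKM there (82.6%), against 52.6% of all such genes. Summed FPKM of 12 stroma and smooth muscle genes was 2351, 1799 and 453 in the 3 suppressed testis libraries and 583, 735 and 967 in the controls. Summed FPKM of 6 Leydig cell genes was 2215, 2265 and 743 against 792, 917 and 1283. In control testis, replicate 1 held the lowest value for 29 of 52 receptors (55.8%, against 47.1% of all genes). These are bulk samples, in which fewer cells of a type and less RNA per cell cannot be told apart.

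Receptor RNAs were of low to middling abundance. In control testis 48 of the 66 averaged at least 1 FPKM and 12 averaged at least 10; in control ovary 36 and 8 did. The share at 10 FPKM or more was 18.2% in control testis and 12.1% in control ovary, against 33.6% and 33.3% of all genes. The most abundant in control testis was the vitamin D receptor vdrb at 94.8 ± 5.65 FPKM (SD, n = 3), followed by the REV-ERB genes nr1d2b (32.7), nr1d2a (24.6) and nr1d1 (21.9), heme-binding repressors of the circadian clock. In control ovary it was the retinoid X receptor rxrgb at 47.2, followed by nr1d2b at 41.5 and the estrogen receptor esr2a at 25.3. The REV-ERB nr1d2b was therefore second in both gonads.

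**Figure D1:**
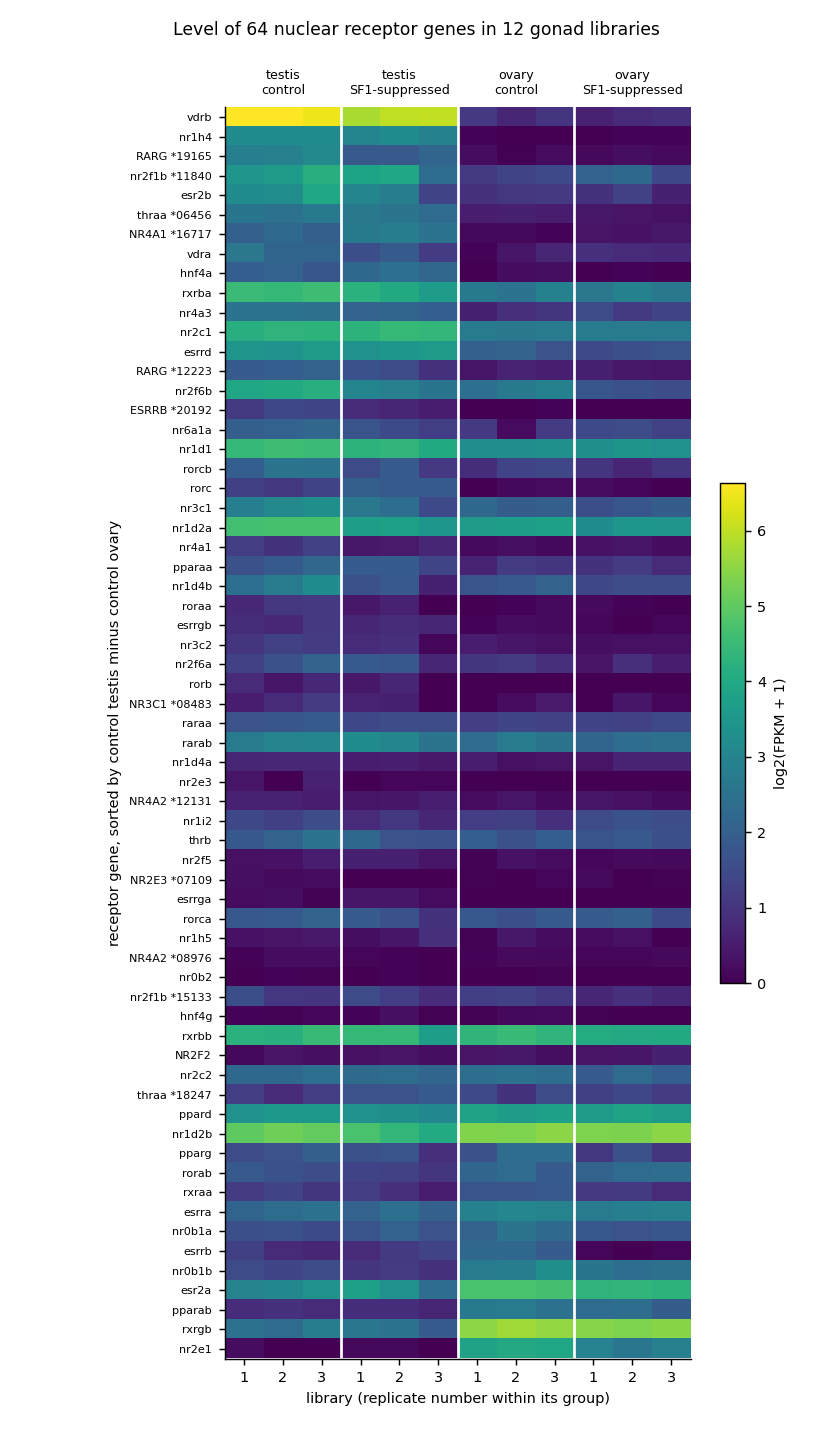
Level of each of 64 receptor genes (rows) in each of the 12 libraries (columns, replicate number below), as log2(FPKM + 1) by colour, sorted by control testis minus control ovary; a star with a number gives the last 5 digits of the Ensembl number of a gene whose name is shared. The top rows, led by vdrb, are bright in testis, the bottom rows, led by nr2e1 and rxrgb, are bright in ovary, and most rows in between are dark throughout.

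The comparison of testis with ovary asked which receptors each gonad holds. In the control libraries 28 of 50 tested receptors were higher in testis, 15 were lower and 7 did not pass; 86.3% of all genes tested passed, 44.1% higher and 42.3% lower. The median log2 difference (testis minus ovary) was 0.97 over the receptors and 0.05 over all genes. FPKM did not overlap between the tissues for 28 receptors that were higher in testis and 13 that were lower, against 48.2% and 39.8% of all genes. Of the 50, 10 reached the filter of 1 FPKM only in testis and 2 (nr2e1 and pparab) only in ovary, so those had to differ. The 10 were nr1h4, hnf4a, vdra, rorc, nr3c2, thraa ENSONIG00000006456, both RARG copies, the ESRRB copy and the NR4A1 copy ENSONIG00000016717. For these genes the filter fixed the direction and the lack of overlap between control tissues given below. The suppressed libraries, which share no library with the controls, gave 18 higher and 11 lower of 44 tested, where 41.3% and 39.9% of all genes passed (81.1% in all; receptor median 0.33, all genes 0.03). Of these 44, 8 reached the filter only in testis and 2 only in ovary. Of 44 tested in both sets, 18 were higher in testis in both, 10 were lower in both and 0 changed direction. The share of all genes called alike in both sets is not given here, so nothing particular to receptors is read from these counts.

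**Figure D2:**
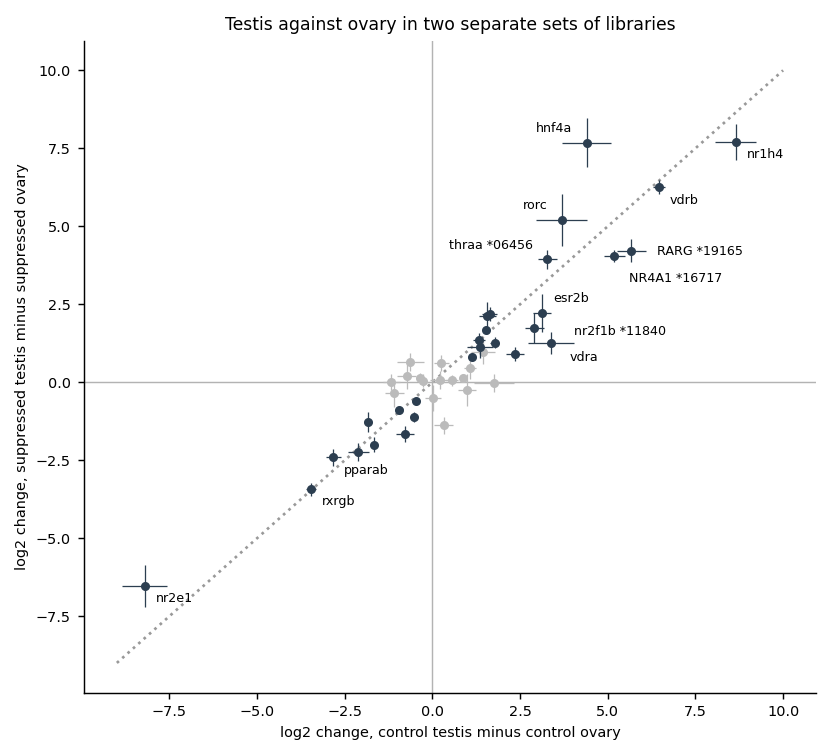
Log2 difference between testis and ovary for 44 receptor genes in control libraries (horizontal axis) and in suppressed libraries (vertical axis), with standard errors; dark points passed the test in both sets, grey points did not, and the dotted line marks equal values. The 18 dark points at the upper right and the 10 at the lower left keep their side, with vdrb, nr1h4 and nr2e1 farthest out.

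Among receptors for vitamin D, bile acids and lipids, several were near absent from ovary. The vitamin D receptor vdrb had 97.5, 98.5 and 88.3 FPKM in control testis and 1.15, 0.653 and 1.03 in control ovary. No ovary library came near any testis library (log2 difference 6.46, SE 0.18, adjusted p = 1.87e-09). The bile acid receptor nr1h4 (FXR) had 8.45, 8.43 and 8.15 FPKM in control testis and 0.0467, 0 and 0 in control ovary, with at most 4 counts in an ovary library (8.65, SE 0.59, adjusted p = 5.91e-07). The hepatocyte factor hnf4a, best known from liver, had 2.97, 3.26 and 2.42 FPKM in control testis and 0, 0.158 and 0.190 in control ovary (4.40, SE 0.70). Both genes reached the filter in testis alone, so all testis libraries stood above all ovary libraries, in control and in suppressed fish. The second vitamin D receptor, vdra, was at 4.01 ± 1.05 and 0.330 ± 0.305 FPKM (3.39, SE 0.66).

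The fatty acid receptors of the PPAR group split by tissue. The PPAR-alpha gene pparab, an activator of fatty acid oxidation, had 0.796, 0.922 and 0.761 FPKM in control testis and 5.48, 5.55 and 4.63 in control ovary (log2 difference -2.83, SE 0.22, adjusted p = 1.58e-06). Its partner gene pparaa had 2.13, 2.65 and 3.58 FPKM in control testis and 0.553, 1.26 and 1.04 in control ovary (1.36, SE 0.37, adjusted p = 0.00686). The groups did not overlap for either gene, in opposite directions, which for pparab was fixed by the filter, reached in ovary alone. The broadly expressed ppard was lower in testis by a small margin (10.2 against 12.5 FPKM; -0.48, SE 0.11). The adipocyte regulator pparg was lower as well (-0.74, SE 0.28, adjusted p = 0.0302). That call was lost under total count scaling, with limma and without control testis replicate 1 or 2 or control ovary replicate 2 or 3 (adjusted p up to 0.167).

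Retinoid X receptors, the shared partners of the vitamin D, thyroid, retinoic acid and PPAR receptors, also differed in their tissue. The gene rxrgb had 4.71, 3.98 and 5.94 FPKM in control testis and 44.5, 50.6 and 46.6 in control ovary (log2 difference -3.46, SE 0.14, adjusted p = 1.61e-08). It overlaps lmx1a on the same strand, so reads could be split between the 2 genes. In contrast rxrba had 21.8, 20.5 and 22.7 FPKM in control testis and 5.44, 4.74 and 6.59 in control ovary (1.77, SE 0.14, adjusted p = 1.79e-06). All 3 testis libraries lay below all ovary libraries for rxrgb and above them for rxrba. The gene rxrbb was abundant in both, at 18.6 and 19.8 FPKM, and did not pass (-0.27, SE 0.12, adjusted p = 0.0556). The low rxraa was lower in testis (-1.09, SE 0.27). On the FPKM scale rxrgb was thus the leading retinoid X receptor of the ovary, and rxrba and rxrbb those of the testis.

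Retinoic acid and thyroid hormone receptors pair with them on DNA. Of the retinoic acid receptors, the RARG copy ENSONIG00000019165 had 6.34, 6.42 and 7.79 FPKM in control testis and 0.172, 0.0344 and 0.136 in control ovary (log2 difference 5.67, SE 0.42, adjusted p = 1.04e-06). The other RARG copy, ENSONIG00000012223, was at 3.01 against 0.458 FPKM (2.53, SE 0.25). Both copies reached the filter in testis alone, so no ovary library could reach a testis library. The alpha receptors differed less: raraa was higher (0.56, SE 0.16) and rarab did not pass (0.25, SE 0.21, adjusted p = 0.282). Of the thyroid hormone receptors, thraa ENSONIG00000006456 had 4.99, 4.63 and 5.40 FPKM in control testis and 0.419, 0.504 and 0.422 in control ovary (3.27, SE 0.27). The second thraa gene, ENSONIG00000018247, at 1.12 and 1.53 FPKM, and thrb, at 3.55 and 2.69, did not pass.

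The estrogen receptors showed opposite tissue preference. The gene esr2b had 8.21, 8.53 and 14.6 FPKM in control testis and 0.916, 1.07 and 1.14 in control ovary (log2 difference 3.13, SE 0.26, adjusted p = 2.12e-06). Its relative esr2a had 6.81, 7.60 and 9.51 FPKM in control testis and 25.5, 25.7 and 24.8 in control ovary (-1.85, SE 0.11, adjusted p = 1.95e-07). Testis was entirely above ovary for esr2b and entirely below it for esr2a. Both genes kept their side in the suppressed libraries, with 2.22 for esr2b and -1.28 for esr2a.

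Receptors for corticoids were testis-leaning in controls. The glucocorticoid receptor nr3c1 had 6.32, 7.70 and 8.81 FPKM in control testis and 3.63, 2.91 and 2.99 in control ovary (log2 difference 1.07, SE 0.17, adjusted p = 0.00023), with no overlap. In suppressed libraries it did not pass (0.46, SE 0.37, adjusted p = 0.283), with 5.16, 4.26 and 1.74 FPKM in testis and 2.03, 2.43 and 2.89 in ovary. The mineralocorticoid receptor nr3c2 was at 1.26 against 0.325 FPKM in controls (1.76, SE 0.34, adjusted p = 0.000934) and was not tested in the suppressed set. The NR3C1 copy ENSONIG00000008483 stayed below the filter in all comparisons, with at most 1.26 FPKM in a library.

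Estrogen-related receptors, which need no hormone and act on energy metabolism, showed all patterns. The gene esrrd was at 10.1 ± 0.604 FPKM in control testis and 2.88 ± 0.547 in control ovary (SD, n = 3; log2 difference 1.63, SE 0.22, adjusted p = 6.92e-05). Its relative esrra was lower in testis, at 4.02 against 6.90 FPKM (-0.96, SE 0.11, adjusted p = 2.58e-05). The gene esrrb was lower in control testis (0.933 against 3.33 FPKM; adjusted p = 0.000469), and the ESRRB copy ENSONIG00000020192 was at 1.50 FPKM in control testis and 0.0129 in control ovary (6.18, SE 0.77). These 2 genes again lay on opposite sides.

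Among orphan receptors the tissues differed most at nr2e1 (TLX), which in mammals maintains neural stem cells and acts in the retina. It had 13.2, 15.1 and 14.1 FPKM in control ovary and 0.163, 0 and 0 in control testis (log2 difference -8.21, SE 0.65, adjusted p = 1.68e-06). It ranked with the ovary receptors in the suppressed set too (-6.53, SE 0.67). The COUP-TF gene nr2f1b ENSONIG00000011840 had 10.1, 11.6 and 17.2 FPKM in control testis and 1.18, 1.58 and 1.74 in control ovary (2.91, SE 0.26). Its namesake nr2f1b ENSONIG00000015133 was at 1.37 and 1.32 FPKM and did not pass (-0.12, SE 0.30). The EAR2 gene nr2f6b was higher in testis (15.5 against 5.44 FPKM; 1.33, SE 0.18), as was nr2f6a (2.33 against 1.06; 0.95, SE 0.35, adjusted p = 0.0299). The testicular receptor gene nr2c1 had 17.0, 19.0 and 18.5 FPKM in control testis and 5.72, 5.26 and 5.69 in control ovary (1.53, SE 0.09), whereas nr2c2 was slightly lower in testis (-0.35, SE 0.12). Both DAX1 genes were lower in testis: nr0b1b had 1.77 against 6.84 FPKM (-2.12, SE 0.30) and nr0b1a 2.02 against 4.04 (-1.17, SE 0.25).

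Of the NR4A receptors, which cells induce within minutes of a stimulus, the NR4A1 copy and nr4a3 could be tested and were higher in testis. The NR4A1 copy ENSONIG00000016717 had 3.08, 3.78 and 3.05 FPKM in control testis and 0.0959, 0.0962 and 0.0434 in control ovary (log2 difference 5.18, SE 0.30, adjusted p = 1.8e-07). The gene nr4a3 had 4.77, 4.74 and 4.50 FPKM in control testis and 0.503, 0.862 and 1.05 in control ovary (2.35, SE 0.26). No ovary library reached a testis library, which for the NR4A1 copy was fixed by the filter. The gene nr4a1 (1.24 and 0.145 FPKM) and the NR4A2 copies ENSONIG00000012131 (0.489 and 0.193) and ENSONIG00000008976 (0.126 and 0.0909) stayed below the filter.

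Of the clock receptors, which share binding elements, the repressor nr1d1 was higher in testis (21.9 against 8.73 FPKM; log2 difference 1.14, SE 0.10), as was nr1d2a (24.6 ± 0.752 in testis, with 10.9, 12.2 and 12.9 in ovary; 0.86, SE 0.08). The repressor nr1d2b was lower (32.7 against 41.5; -0.52, SE 0.08, adjusted p = 0.000198). The activator rorc had 1.38, 1.09 and 1.55 FPKM in control testis and 0, 0.111 and 0.148 in control ovary (3.69, SE 0.73), while rorab was lower in testis (2.24 against 3.42; -0.78, SE 0.26, adjusted p = 0.0173). Its call in controls was lost under total count scaling and without control testis replicate 2 or 3 or control ovary replicate 2 (adjusted p up to 0.0635); in the suppressed libraries it was -1.65 (adjusted p = 0.00063). The gene rorcb was higher in testis in controls (1.44, SE 0.33) and rorca did not pass (0.02, SE 0.23). Of the 43 calls between control tissues, 37 were followed gene by gene with 1 library left out. Of these 37, 35 held in every such fit, with pparg and rorab as the exceptions. The calls of nr2f6a, raraa, rorcb and nr2c2 were not among the 37. Between 39 and 42 receptors passed in these fits, so other calls could also be lost. In the suppressed set 28 of 29 held; the exception was pparaa, which was lost without suppressed testis replicate 1 or 2 or suppressed ovary replicate 1 or 3 (adjusted p up to 0.0597).

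Tilapia carries many receptors as several genes. There were 21 receptors present as 2 or more genes, 43 genes in all, and for 14 of them every gene was tested between control tissues. For 5 of the 14 (ESR2, ESRRB, NR1D2 and PPARA among them) one gene was higher in testis and another in ovary. The side of the ESRRB copy and of pparab was fixed by the filter. For 3 (ESR2 and PPARA among them) the opposite calls were also made in the suppressed libraries. For the other receptors with all genes tested the calls were in 1 direction or made for part of the genes. Of all genes 86.3% passed between these tissues, with 44.1% higher and 42.3% lower in testis.

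**Figure D3:**
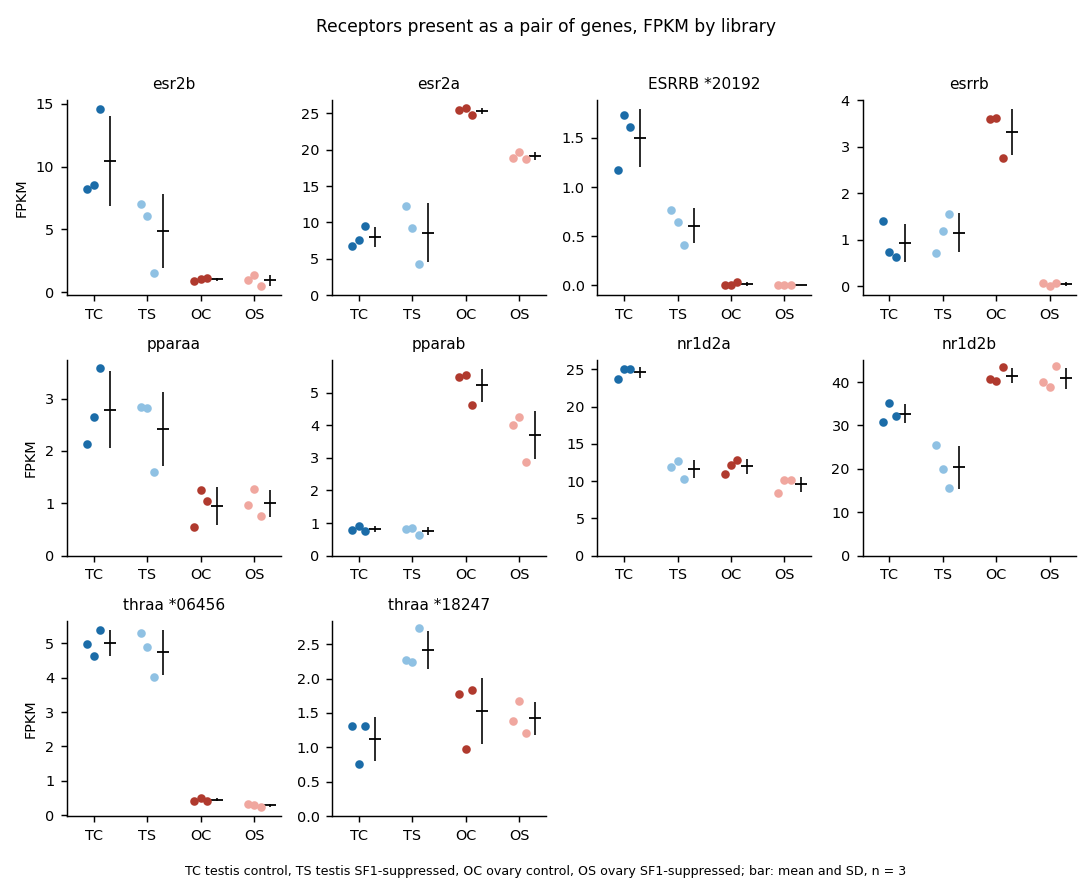
FPKM of 10 receptor genes, shown as 5 pairs of related genes, in each library (points) with mean and SD (bars, n = 3) for testis control (TC), testis SF1-suppressed (TS), ovary control (OC) and ovary SF1-suppressed (OS). The genes esr2b, the ESRRB copy and pparaa are high in testis, and esr2a, esrrb and pparab are high in control ovary; esrrb is near 0 in suppressed ovary.

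The comparison of labels within testis asked which receptors differed 150 days after the egg was treated. In suppressed testis 3 receptors rose (the NR4A1 copy, rorc and thraa ENSONIG00000018247), 4 fell (nr1d2a, nr2f6b, the RARG copy ENSONIG00000019165 and vdrb) and 41 of 48 did not pass. That is 14.6% of the receptors tested, where 10.9% of all genes passed (5.25% higher and 5.68% lower). The receptor median was -0.24 and that of all genes 0.00 on the log2 scale. FPKM of the groups did not overlap for 23 receptors that were lower (47.9%) and 5 that were higher (10.4%), against 26.4% and 12.5% of all genes. Of the 48, 2 (nr3c2 and the ESRRB copy) reached the filter of 1 FPKM in control libraries alone, so those had to be among the 23. At an unadjusted p under 0.05 there were 21 receptors. The share of all genes at that threshold is not given here, so nothing is read from this count.

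The REV-ERB gene nr1d2a had 23.7, 25.1 and 25.0 FPKM in control testis and 11.9, 12.7 and 10.3 in suppressed testis. No suppressed library came near a control library (log2 change -0.97, SE 0.09, adjusted p = 0.00111). The EAR2 gene nr2f6b, a COUP-TF relative that represses transcription, had 14.2, 15.3 and 17.1 FPKM in control and 6.95, 6.39 and 4.98 in suppressed testis (-1.24, SE 0.17, adjusted p = 0.00457). Both calls held when any 1 library was left out (adjusted p up to 0.0137 and 0.0350).

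A vitamin D receptor gene and a retinoic acid receptor gene of the testis were also lower. The abundant vdrb had 97.5, 98.5 and 88.3 FPKM in control and 54.0, 63.5 and 64.8 in suppressed testis (log2 change -0.52, SE 0.12, adjusted p = 0.0352). The RARG copy ENSONIG00000019165 had 6.34, 6.42 and 7.79 FPKM in control and 2.60, 2.62 and 3.48 in suppressed testis (-1.12, SE 0.21, adjusted p = 0.0169). In both genes every suppressed library was below every control library. For their relatives, vdra stood at 4.01 against 1.99 FPKM (-0.92, SE 0.33, adjusted p = 0.113) and the other RARG copy at 3.01 against 1.67 (-0.75, SE 0.28, adjusted p = 0.121), which did not pass. The alpha receptors raraa (-0.30, adjusted p = 0.237) and rarab (0.16, adjusted p = 0.658) did not pass either. The call of vdrb held in 1 of 6 fits with a library left out, the one without suppressed replicate 3 (elsewhere adjusted p up to 0.147). For the RARG copy it did not hold without suppressed replicate 2 or without any single one of the controls (up to 0.0784).

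The 3 that rose were low-abundance genes. The NR4A1 copy, an inducible orphan receptor, had 3.08, 3.78 and 3.05 FPKM in control and 5.45, 5.90 and 4.80 in suppressed testis (log2 change 0.81, SE 0.13, adjusted p = 0.00998). The clock activator rorc had 1.38, 1.09 and 1.55 FPKM in control and 3.03, 2.66 and 2.74 in suppressed testis (1.19, SE 0.24, adjusted p = 0.0210). The thyroid hormone receptor thraa ENSONIG00000018247 had 1.31, 0.756 and 1.31 FPKM in control and 2.27, 2.24 and 2.74 in suppressed testis (1.22, SE 0.31, adjusted p = 0.0451). Suppressed replicate 3 did not fall below its group for rorc and thraa, and in all 3 genes the groups did not overlap. The call of the NR4A1 copy was lost without control replicate 1 or 3 (up to 0.0549), and those of rorc and thraa in every such fit but that without suppressed replicate 3 (up to 0.118 and 0.173). The thraa call was also lost under total count scaling (adjusted p = 0.0592).

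The low library bore on many receptors. Relative to the control mean, in TMM-scaled log2 CPM (counts per library size), the 48 tested receptors had medians of -0.09, -0.12 and -0.57 in suppressed testis replicates 1, 2 and 3. Without replicate 3, 12 receptors passed: the 7 above and 5 more, among them esr2a higher and nr1d2b, nr1d4b and nr3c1 lower. Of all genes 2899 passed in that fit, against 1571 with all libraries. Examples are esr2a, with 6.81, 7.60 and 9.51 FPKM in control and 12.3, 9.27 and 4.30 in suppressed testis (log2 change 0.21, SE 0.31, adjusted p = 0.682 with all libraries), and nr1d4b, with 4.36, 5.74 and 8.41 against 2.11, 2.60 and 0.510 (-1.73, SE 0.51, adjusted p = 0.0673). The stroma and Leydig sums above moved with the same library, and their part in the receptor values was not tested. Other marker lists moved with the label in all testis libraries. Summed FPKM of 5 exocrine pancreas and intestine genes, 2 of them lower, was 30.0, 36.9 and 44.9 in control and 10.2, 14.7 and 6.66 in suppressed testis. For 12 liver genes, 3 of them lower, it was 42.5, 34.4 and 38.2 against 16.8, 15.3 and 12.6, most of it apoeb. For 6 skeletal muscle genes, 3 of them higher, it was 74.9, 79.3 and 79.6 against 241, 167 and 95.1, most of it eno3 and acta1a. For 3 erythrocyte genes, 1 of them lower, it was 8.57, 16.7 and 7.87 against 5.90, 3.03 and 3.13. The sums of 7 Sertoli cell genes, 1 of them higher and 2 lower, overlapped between labels (1483, 1499 and 1565 against 2103, 1923 and 1133). The part of these lists was not tested.

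**Figure D4:**
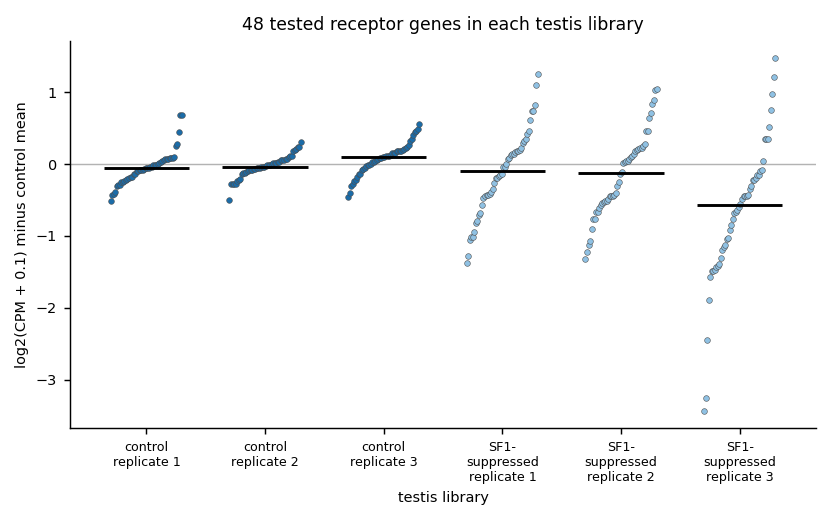
Each of the 48 receptor genes tested in testis (points) in each testis library, as TMM-scaled log2(CPM + 0.1) minus the mean of the 3 control libraries, with the median as a black line. The medians of suppressed replicates 1 and 2 lie at -0.09 and -0.12, near those of the controls, and that of suppressed replicate 3 lies at -0.57.

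Estrogen and corticoid receptors did not pass the test in testis. The estrogen receptor esr2b stood at 7.05, 6.08 and 1.56 FPKM against 8.21, 8.53 and 14.6 in controls (log2 change -0.99, SE 0.47, adjusted p = 0.205), without overlap. The glucocorticoid receptor nr3c1 stood at 5.16, 4.26 and 1.74 FPKM against 6.32, 7.70 and 8.81 (-0.93, SE 0.34, adjusted p = 0.114), also without overlap. The DAX1 genes stood at 2.61 against 2.02 FPKM for nr0b1a (0.47, SE 0.25) and 1.05 against 1.77 for nr0b1b (-0.64, SE 0.33).

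In ovary the labels differed at more receptors. In suppressed ovary 4 receptors rose (nr1i2, nr2f1b ENSONIG00000011840 and nr4a3 among them), 9 fell (esr2a, esrrb, nr0b1a, nr2e1, nr2f1b ENSONIG00000015133, nr2f6b, pparg, rxraa and rxrbb) and 25 of 38 did not pass. Of the 38, 2 (esrrb and nr2f1b ENSONIG00000015133) reached the filter of 1 FPKM in control libraries alone, so those had to differ. The share past the test was 34.2% of the receptors tested, near the 35.9% of all genes that passed (18.1% higher and 17.9% lower). The receptors that fell made up 23.7%. The receptor median was -0.15, against -0.01 over all genes. FPKM did not overlap for 16 receptors that were lower (42.1%) and 4 that were higher (10.5%), against 31.5% and 18.5% of all genes.

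The estrogen receptor esr2a had 25.5, 25.7 and 24.8 FPKM in control and 18.9, 19.7 and 18.7 in suppressed ovary (log2 change -0.34, SE 0.05, adjusted p = 0.000832), without overlap. The call held when any 1 library was left out. Its relative esr2b, the testis-leaning gene, stood at 0.953 against 1.04 FPKM and did not pass (-0.07, SE 0.36). Among the enzymes that supply its ligand, the aromatase cyp19a1a, which makes estradiol, fell from 87.3 ± 18.2 to 57.8 ± 12.5 FPKM (-0.53, SE 0.16, adjusted p = 0.0317). Its libraries overlapped, with 67.8, 90.2 and 104 FPKM in control and 50.7, 72.2 and 50.5 in suppressed ovary. In ovary 5 sex steroid and corticoid supply genes passed, and between 2 and 4 did with 1 library left out.

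The largest receptor change was at esrrb, an estrogen-related receptor. In ovary it reached the filter in control libraries alone, which fixed the direction and the lack of overlap between labels. It had 3.61, 3.62 and 2.76 FPKM in control ovary and 0.0763, 0 and 0.0693 in suppressed ovary, that is, at most 9 counts in a suppressed library against at least 311 in a control. The fitted level was 61.6-fold lower (log2 change -5.94, SE 0.55, adjusted p = 2.59e-05), and the call held when any 1 library was left out (log2 change between -6.39 and -5.35). With limma on FPKM plus a pseudocount the change was smaller, down to -2.04, and past the test. In testis the same gene stood at 1.41, 0.747 and 0.637 FPKM in control and 0.718, 1.19 and 1.56 in suppressed libraries (0.42, SE 0.45, adjusted p = 0.564). The gene was thus near 0 in 1 of the 4 groups. It lies on scaffold GL831316.1 from base 131551 to 168885, on the minus strand.

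Of the NR2 orphan receptors tested in ovary, 3 fell, 1 rose, and nr2c1 and nr2c2 did not pass. The TLX gene nr2e1 had 13.2, 15.1 and 14.1 FPKM in control and 6.64, 5.06 and 6.37 in suppressed ovary (log2 change -1.16, SE 0.13, adjusted p = 0.000104). The EAR2 gene nr2f6b had 4.35, 5.48 and 6.50 FPKM in control and 2.45, 2.17 and 1.97 in suppressed ovary (-1.23, SE 0.21, adjusted p = 0.00149). Groups did not overlap for either gene. The COUP-TF gene nr2f1b ENSONIG00000015133 was at 1.32 ± 0.202 FPKM in control and 0.720 ± 0.140 in suppressed ovary (-0.80, SE 0.19, adjusted p = 0.00950), and these 3 calls held when any 1 library was left out. For nr2f1b ENSONIG00000015133 the direction was fixed by the filter, reached in control libraries alone. The other nr2f1b gene, ENSONIG00000011840, rose from 1.18, 1.58 and 1.74 to 3.22, 3.75 and 1.66 FPKM (1.00, SE 0.32, adjusted p = 0.0370), with suppressed replicate 3 among the controls. That rise was lost with limma and in 5 of 6 fits with a library left out, holding without suppressed replicate 3 (adjusted p up to 0.129).

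Of the RXR and PPAR genes, rxraa had 2.30, 2.30 and 2.60 FPKM in control and 1.13, 1.17 and 0.733 in suppressed ovary (log2 change -1.17, SE 0.24, adjusted p = 0.00428), and its call held when any 1 library was left out. The abundant rxrbb had 19.2, 21.4 and 18.9 FPKM in control and 15.9, 15.2 and 15.4 in suppressed ovary (-0.29, SE 0.09, adjusted p = 0.0349). For both, all suppressed libraries were lower. The leading retinoid X receptor, rxrgb, stood at 41.6 against 47.2 FPKM and did not pass (-0.11, SE 0.07, adjusted p = 0.210). The adipocyte regulator pparg had 2.13, 4.22 and 4.14 FPKM in control and 1.12, 2.15 and 0.987 in suppressed ovary (-1.23, SE 0.33, adjusted p = 0.0150), with control replicate 1 and suppressed replicate 2 overlapping. Calls were lost for rxrbb without control replicate 2 or any 1 suppressed library (adjusted p up to 0.117) and with no filter on low genes (0.0506), and for pparg without control replicate 3 or suppressed replicate 1 or 3 (up to 0.0597).

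The remaining calls in ovary concerned a xenobiotic sensor, an NR4A gene and DAX1. The pregnane X receptor nr1i2, which senses foreign compounds and steroids, had 1.30, 1.39 and 0.883 FPKM in control and 1.85, 2.21 and 1.95 in suppressed ovary (log2 change 0.82, SE 0.22, adjusted p = 0.0152), a call that held when any 1 library was left out. The inducible nr4a3 had 0.503, 0.862 and 1.05 FPKM in control and 1.93, 1.17 and 1.58 in suppressed ovary (1.03, SE 0.29, adjusted p = 0.0190). The DAX1 gene nr0b1a had 3.31, 4.91 and 3.90 FPKM in control and 2.55, 2.23 and 2.43 in suppressed ovary (-0.68, SE 0.21, adjusted p = 0.0269). None of the 3 genes overlapped between labels. The second DAX1 gene, nr0b1b, stood at 4.58 against 6.84 FPKM and did not pass (-0.51, SE 0.23, adjusted p = 0.107). Calls were lost for nr4a3 without suppressed replicate 1 or 3 (adjusted p up to 0.0837) and with limma on log2(FPKM + 0.1) (0.0522), and for nr0b1a without any 1 library other than control replicate 1 (up to 0.108).

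Markers of other cells moved beside these receptors in ovary. Of 5 oocyte genes 4 were higher, and their summed FPKM was between 1854 and 1868 in suppressed and between 1427 and 1587 in control libraries. Of 12 stroma and smooth muscle genes 8 were higher and 1 was lower, with sums between 917 and 970 against 504 and 560. Of 6 granulosa cell genes 3 were lower, with sums between 85.8 and 132 against 120 and 182. Of 12 liver genes 2 were lower, with sums between 197 and 324 in suppressed against 1401 and 3282 in control libraries, most of it apoeb. Of 8 leukocyte genes 2 were lower, with overlapping sums between 155 and 218 against 137 and 233. Of 6 skeletal muscle genes 2 were higher, with sums between 1518 and 1616 against 1187 and 1233. Nearly all of that sum was eno3, at 1561 FPKM in suppressed and 1207 in control ovary on average. In ovary mylpfa, pvalb4 and tnnt3a were at or near 0, and ckma was at 0.941 against 1.51 FPKM. The part of these lists in the receptor changes was not tested.

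**Figure D5:**
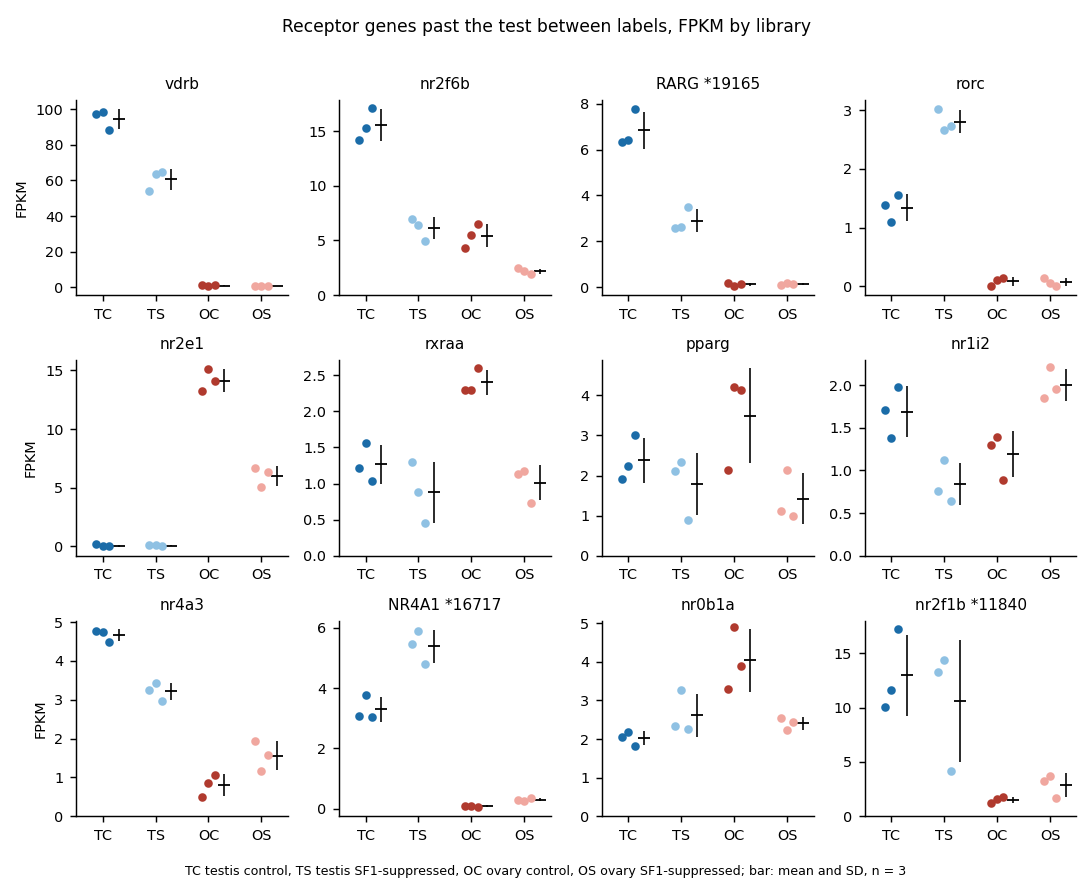
FPKM of 12 receptor genes past the test between labels in testis, in ovary or in both, in each library (points) with mean and SD (bars, n = 3); TC, TS, OC and OS are control and suppressed testis and control and suppressed ovary. The genes vdrb, nr2f6b and the RARG copy are lower in TS than in TC, nr2e1 and rxraa are lower in OS than in OC, and nr4a3 and nr1i2 are higher in OS than in OC.

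The difference between the label change in testis and that in ovary was tested over all libraries. It passed for 7 of 50 receptors, 2 higher and 5 lower in testis than in ovary, where 15.5% of all genes passed (7.33% higher and 8.15% lower). Besides esrrb (difference 6.33 on the log2 scale, SE 0.92, adjusted p = 0.000654) they were nr0b1a (1.11, SE 0.34, adjusted p = 0.0453), nr1i2, nr4a3, the NR4A1 copy, nr1d2a and nr1d2b. For nr1i2, testis had 1.71, 1.38 and 1.98 FPKM in control and 0.759, 1.12 and 0.646 in suppressed libraries, the reverse of ovary (difference -1.75, SE 0.38, adjusted p = 0.00870). For nr4a3, testis had 4.77, 4.74 and 4.50 FPKM in control and 3.25, 3.42 and 2.98 in suppressed libraries, also the reverse of ovary (-1.49, SE 0.35, adjusted p = 0.0131). Within testis alone neither passed (adjusted p = 0.0817 and 0.0671), though the groups did not overlap.

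The label change differed between tissues for the REV-ERB genes nr1d2a and nr1d2b. For nr1d2a the difference was -0.76 (SE 0.13, adjusted p = 0.00241), with 10.9, 12.2 and 12.9 FPKM in control and 8.43, 10.2 and 10.1 in suppressed ovary. For nr1d2b it was -0.66 (SE 0.18, adjusted p = 0.0305): testis had 30.8, 35.2 and 32.2 FPKM in control and 25.5, 19.9 and 15.7 in suppressed libraries, and ovary 41.5 and 40.9 on average. In ovary neither gene passed (-0.25 and 0.05), and in testis nr1d2b did not pass either (-0.58, adjusted p = 0.0592). For the NR4A1 copy the difference was -1.18 (SE 0.33, adjusted p = 0.0324). Its FPKM went from 0.0785 to 0.297 in ovary, below the filter of 1 FPKM, and from 3.30 to 5.38 in testis. With a filter of 10 counts in 3 libraries or with no filter it was tested in ovary and passed as higher. The sign of its difference between tissues depended on the scale, being 0.30 (adjusted p = 0.129) with limma on log2(FPKM + 1). The calls of esrrb, nr1d2a, nr1i2 and nr4a3 held when any 1 of the 12 libraries was left out. Those of the NR4A1 copy, nr0b1a and nr1d2b were lost in 7, 9 and 8 of these fits (adjusted p up to 0.0833, 0.113 and 0.0790). The fits for each included those without any 1 control testis library or without suppressed testis replicate 2. The others were, for the NR4A1 copy, without suppressed testis replicate 1, control ovary replicate 3 or suppressed ovary replicate 3. For nr0b1a they were without control ovary replicate 2 or 3 or any 1 suppressed ovary library. For nr1d2b they were without control ovary replicate 1 or 2 or suppressed ovary replicate 1 or 3.

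Of 36 receptors tested in both tissues, nr2f6b was the 1 that fell in both, and 0 rose in both. The share of all genes that fell or rose in both is not given here, so nothing is read from these counts. Of the testis calls only nr1d2a, nr2f6b and thraa ENSONIG00000018247 were also tested in ovary, so few could be shared. With a filter of 10 counts in 3 libraries or with no filter, the NR4A1 copy passed as higher in both tissues. The change of nr2f6b was -1.24 in testis and -1.23 in ovary, with a difference of -0.04 (SE 0.28, adjusted p = 0.955). It lies on scaffold GL831168.1 from base 4356660 to 4362366. Its relative nr2f6a was at 1.93 against 2.33 FPKM in testis (-0.18, SE 0.50) and was not tested in ovary, with 0.278, 0.877 and 0.444 FPKM in suppressed and 1.05, 1.28 and 0.862 in control libraries.

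Several receptor genes are neighbours in the genome. The pairs nr1d2b and thrb (9.9 kb apart), nr1d4b and the RARG copy ENSONIG00000019165 (14.3 kb), and nr1d4a and the RARG copy ENSONIG00000012223 (24.6 kb) have 0 genes between them. In testis nr1d4b and its neighbour had lower values under suppression (log2 changes -1.73 and -1.12, of which the second passed), and nr1d2b and thrb stood at -0.58 and -0.27, neither past the test. The germ cell receptor nr6a1a (GCNF), which silences pluripotency genes in mammals, lies 57.2 kb from the target gene nr5a1 on scaffold GL831302.1, on the same strand and with 0 genes between. It had 2.99, 3.22 and 3.53 FPKM in control testis and 2.31, 1.81 and 1.35 in suppressed testis (-0.72, SE 0.25, adjusted p = 0.101), without overlap. In ovary it had 1.13, 0.150 and 1.22 FPKM in control and 1.76, 1.84 and 1.48 in suppressed libraries (1.08, SE 0.54, adjusted p = 0.146). On the opposite strand it overlaps 2 genes without a symbol, whose reads cannot be told apart without strand.

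Genes that work with these receptors were counted by list. Of 23 tested clock partners of REV-ERB and ROR in testis, 0 rose and 8 fell (median log2 change -0.62, all genes 0.00), where 5.25% and 5.68% of all genes did. The repressor BHLHE40 ENSONIG00000019148 fell from 109 ± 13.3 to 30.6 ± 7.07 FPKM (log2 change -1.73, SE 0.16, adjusted p = 0.000997). The period gene per3 fell from 40.4 ± 3.10 to 24.2 ± 2.44 (-0.62, SE 0.11, adjusted p = 0.0115) and per2 from 5.07 ± 0.691 to 1.92 ± 0.507 (-1.29, SE 0.20, adjusted p = 0.00741). In ovary 1 of 20 rose and 8 fell (median -0.37), where 18.1% and 17.9% of all genes did. There arntl2 ENSONIG00000014665, a partner of CLOCK, fell from 6.37 ± 0.172 to 0.893 ± 0.282 FPKM (-2.76, SE 0.21, adjusted p = 7.07e-06), while per2 rose from 18.9 ± 2.70 to 27.8 ± 1.29 (0.63, SE 0.09, adjusted p = 0.000564). The time of day at which gonads were taken was not analysed here. With 1 library left out the number past the test was between 3 and 9 in testis (5, 3 and 3 without control replicate 1, 2 or 3, and 4 without suppressed replicate 2) and between 6 and 12 in ovary.

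Of 13 genes known to respond to glucocorticoid or thyroid hormone, 0 rose and 5 fell in testis (median -0.58), and 3 rose and 4 fell of 12 in ovary (median -0.22). For this list and those that follow, the share of all genes past the test was 10.9% in testis and 35.9% in ovary. In testis klf9, a target of both hormones, fell from 22.1 ± 6.61 to 3.65 ± 1.48 FPKM (-2.48, SE 0.34, adjusted p = 0.00475). In ovary the glucocorticoid-induced chaperone fkbp5 fell from 49.0 ± 8.38 to 22.3 ± 3.18 FPKM (-1.07, SE 0.14, adjusted p = 0.000238), and ddit4 rose from 0.451 ± 0.0870 to 5.93 ± 2.05 (3.76, SE 0.35, adjusted p = 2.87e-05). The more abundant DDIT4 ENSONIG00000016087 did not pass in ovary, at 17.6 FPKM in control and 21.1 in suppressed libraries. In testis that gene fell, from 128 ± 10.7 to 45.9 ± 18.4 FPKM. Of sex steroid and corticoid supply genes, 2 of 9 rose in testis (hsd3b1 and hsd11b2), and 2 rose and 3 fell of 11 in ovary. Without suppressed testis replicate 3, 4 supply genes and 8 response genes passed in testis. Without any 1 control testis library, 0 supply genes and 2 response genes did; without suppressed replicate 2 these numbers were 0 and 3, and without replicate 1 they were 1 and 4. Of all genes, 575, 418 and 523 passed in testis without control replicate 1, 2 or 3, against 1571 with all libraries. In ovary between 2 and 4 supply genes passed with 1 library left out, 2 of them without control replicate 2 or without suppressed replicate 1 or 3.

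In retinoid supply, cyp26a1, which breaks down retinoic acid, fell in testis from 2.93 ± 0.0873 to 1.22 ± 0.439 FPKM (-1.17, SE 0.28, adjusted p = 0.0352) as 1 of 7 genes. In ovary 4 of 7 rose and 1 fell. There aldh1a2, which makes retinoic acid, rose from 1.48 ± 0.450 to 3.63 ± 1.03 (1.35, SE 0.27, adjusted p = 0.00370), and cyp26a1 rose from 45.9 ± 3.01 to 55.0 ± 1.72 (0.33, SE 0.06, adjusted p = 0.00248). Of fatty acid and sterol response genes 3 rose and 3 fell of 23 in testis, and 2 rose and 6 fell of 24 in ovary, where 5 passed without suppressed replicate 1 or 3. The fatty acid carrier fabp11a fell in ovary from 795 ± 339 to 103 ± 13.9 FPKM (-2.89, SE 0.29, adjusted p = 4.76e-05). In testis 2 retinoid supply genes passed without suppressed replicate 3, and 0 when one of the remaining libraries was left out instead. The number of fatty acid genes past the test in testis was 10 without suppressed replicate 3, between 0 and 1 without a control library, and 3 and 2 without suppressed replicates 1 and 2.

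Coregulators and chaperones were counted in the same way, where 10.9% of all genes passed in testis and 35.9% in ovary. Of 28 coactivators 1 rose (prmt1) and 2 fell (kmt2d and smarca4a) in testis, and of 25 in ovary 2 rose and 1 fell. Of 18 corepressors 0 rose and 1 fell in testis, and of 16 in ovary 1 rose and 1 fell. Of 13 steroid receptor chaperones 0 passed in testis by edgeR, with 7 at an unadjusted p under 0.05, 3 without suppressed replicate 3 and between 0 and 5 under the other tools and settings. In ovary 3 rose and 2 fell of 12. Of thyroid hormone and vitamin D supply genes 0 of 5 passed in testis by edgeR, with 2 at an unadjusted p under 0.05 and at most 1 under the other settings, and 1 of 1 fell in ovary. The share of all genes at the unadjusted threshold is not given here, so nothing is read from those counts.

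Of the 66 receptors 16 were below the filter in all comparisons. They were esrrga, esrrgb, hnf4g, nr0b2, nr1d4a, nr1h5, nr2e3, the NR2E3 copy ENSONIG00000007109, NR2F2, nr2f5, the NR3C1 copy, nr4a1, both NR4A2 copies, roraa and rorb. The most abundant in a single library was nr4a1, with 1.32, 0.951 and 1.45 FPKM in control testis and 0.355, 0.397 and 0.650 in suppressed testis, without overlap. With a filter of 10 counts in 3 libraries it had a log2 change of -1.25 in testis (SE 0.35, adjusted p = 0.0614), and its difference from the ovary change passed (-2.05, SE 0.59, adjusted p = 0.0396). The small heterodimer partner nr0b2, a corepressor of liver receptors, had at most 0.0544 FPKM in a library. The photoreceptor-type NR2E3 copy had 60 counts over control testis and 0 over suppressed testis, at least 24.3-fold lower. The neural receptor rorb had 145 counts over control testis and 0 over control ovary, at least 61.0-fold higher in testis, and the estrogen-related esrrga 33 and 0, at least 13.9-fold higher.

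Of the 3 matches that are no receptors, thrap3b, a splicing-associated protein, was at 36.1 ± 1.07 FPKM in control testis and 4.85, 6.34 and 6.22 in the control ovary libraries (log2 difference 2.46, SE 0.11, adjusted p = 2.42e-08). It did not pass between labels in testis (0.17, SE 0.11) or ovary (-0.27, SE 0.11). The coactivator ppargc1a, a driver of mitochondrial genes, was at most at 0.933 FPKM in a library and thrap3a at most at 1.82, and neither was tested.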

How the data were processed

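RNA levels were measured by RNA sequencing in 12 gonad libraries. The deposited table held expected counts (estimated reads per gene, whole numbers, not normalised) and the authors' FPKM (fragments scaled by gene length and library size), per the file headers. Per the submitters' processing notes, the tools included HISAT and StringTie. Their versions, the genome build, the annotation release and the strand setting were not given in the sources used here. FPKM listed at 0.0001 for a count of 0 are printed as 0, and 0 value columns were unmatched. FPKM carry no composition scaling, while log2 changes do.

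A gene entered a comparison when 3 or more of its libraries reached 1 FPKM. Counts were then fitted with edgeR 4.0.16 (R 4.3.3, TMM scaling, quasi-likelihood F test). Benjamini-Hochberg adjustment covered every gene in the fit, with a threshold of 0.05. Each standard error was derived from the F statistic. Both labels were compared within testis and within ovary, testis with ovary within controls and within suppressed libraries, and the difference of the label changes (the interaction) on all 12 libraries. Alternatives were 2 other scalings, DESeq2 1.42.0, limma 3.58.1 on log2(FPKM + 1) and on log2(FPKM + 0.1), 2 other filters, the replicate number as a block, and each library left out in turn with the tested genes kept. The count tests were tested on simulated data.

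The receptor genes, the pathway lists and the marker lists were chosen with earlier results of these data known. Named with values were receptors past the test between labels or in the interaction, those past both tissue tests, the 10 most abundant, the steroid receptors, nr0b1, nr0b2 and nr4a genes, and genes of a receptor present as several copies. Some results counted in the totals are not reported here by name. At 36.8 to 60.5 M counts per library, the spread between libraries set the precision of most tested genes. A fold against a group at 0 counts is a bound computed with 3 counts over the group, for counting error only.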

Additional observations from a re-analysis of the deposited data

Results flagged for a closer look

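For 7 receptors the label change in testis differed from that in ovary by the interaction term of edgeR over all 12 libraries, and each is given as the testis change minus the ovary change on the log2 scale. The difference was 6.33 for esrrb, where ovary fell to near 0 and testis did not pass. It was 1.11 for nr0b1a, with 2.02 and 2.61 FPKM in control and suppressed testis, and 3.31, 4.91 and 3.90 in control against 2.55, 2.23 and 2.43 in suppressed ovary. It was -1.75 for nr1i2 and -1.49 for nr4a3, both higher in suppressed ovary and, without passing, lower in suppressed testis. It was -0.76 for nr1d2a and -0.66 for nr1d2b, both REV-ERB genes, of which nr1d2b passed in neither tissue alone. It was -1.18 for the NR4A1 copy ENSONIG00000016717, whose ovary level stayed under 1 FPKM. Among all genes 15.5% passed the same test, and 7 of 50 receptors did.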

How the results depend on the processing

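The number of receptors past the test moved little between tissues: leaving out 1 library gave between 39 and 42 in controls and between 28 and 32 in suppressed libraries, and no other alternative moved either count by over 1.5 times. In testis the count of 7 became 15 with DESeq2 and 12 with limma on log2(FPKM + 1), and between 2 and 12 without 1 library, the highest without suppressed replicate 3. In ovary the count of 13 ran between 8 and 14 without 1 library. For the difference between tissues the count of 7 became 12 with DESeq2, 15 with limma on log2(FPKM + 1) and between 4 and 9 without 1 library. The cause was not tested. Counts over all genes moved too. In testis 1571 became 2890 with DESeq2, 1786 with limma on log2(FPKM + 1), 418 without control replicate 2 and 2899 without suppressed replicate 3. For the difference between tissues 2381 became 3259 with DESeq2 and 3073 with limma on log2(FPKM + 1). The sign of the difference between tissues turned for the ESRRB copy ENSONIG00000020192 (-0.62 and -1.04 with limma on log2(FPKM + 1) and log2(FPKM + 0.1), against 2.33) and for the NR4A1 copy ENSONIG00000016717 (0.30 against -1.18). Both genes are at or near 0 in ovary. Under total count scaling the median of all genes moved to -0.12 in testis, 0.23 between control tissues and 0.16 between suppressed tissues. Genes past the test then split 554 higher and 1183 lower in testis (755 and 816 with TMM), and 1699 and 3014 in ovary (2268 and 2242). In the interaction nr0b1a then lost its call, leaving 1 higher and 5 lower receptors.

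With the replicate number as a block, 1 receptor passed in testis (nr1d2a), 10 in ovary and 4 in the interaction. Of all genes 276, 3447 and 1783 then passed, against 1571, 4510 and 2381 without the block. The labels do not say whether equal numbers mark a pairing of libraries. Deviations of same-numbered libraries correlated between -0.25 and 0 in testis and between -0.1 and -0.01 in ovary. Between tissues they correlated between 0.01 and 0.06 in controls and between -0.04 and 0.09 in suppressed libraries. With 3 libraries per group these values cannot settle whether the numbers pair the libraries.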
